A study of Homo sapiens with 4 samples.

Results

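The genes described here encode 38 lysosomal proteins: acid hydrolases with their activators, proteins that move sterols and other lipids, and proteins of the lysosomal membrane. Cathepsins and the proton pump were left out of the list by its definition. The list named the genes by symbol and set no rule on their values, but it was chosen with earlier results of these data known. Each gene was measured by summing the deposited transcript values over it, and all 38 were found among 35584 genes with a name in the files and entered the test, which covered 15377 genes. RNA came from microglia-like cells (iMGL) that were grown out of WTC11, a widely used human iPSC line (induced pluripotent stem cells). Unedited cells (WT, 2 libraries) were compared with cells edited to lack SHIP1 (S1KO, 2 libraries), the inositol 5-phosphatase encoded by INPP5D, and each genotype was represented by 2 clones. The labels do not say which library came from which clone, so the p-values measure only the spread between these libraries. The question put to the data was how the RNA of these lysosomal genes differed between the genotypes.

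Lysosomes are acidic compartments in which hydrolases take apart glycans, lipids and proteins delivered by endocytosis, phagocytosis and autophagy. Most of the hydrolases are made in the endoplasmic reticulum and carried to the lysosome on mannose 6-phosphate receptors, while membrane glycoproteins line the inner face and channels set the ion balance. Microglia, the resident phagocytes of the brain, depend heavily on this system, and inherited loss of many of these enzymes causes a lysosomal storage disease in which the undigested substrate builds up. SHIP1 acts on phosphoinositides at the plasma membrane and on early endocytic membranes of blood-derived cells and microglia.

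INPP5D stood at 355.6 and 441.0 CPM (read counts brought to a common library size and scaled by TMM) in the WT libraries (1, then 2) against 81.0 and 97.6 in the S1KO libraries. The difference was -2.16 on the log2 scale (SE 0.21), with an adjusted p = 0.0183 by edgeR's quasi-likelihood test with Benjamini-Hochberg adjustment. Total estimated counts ran from 21516813 to 25927881. Mitochondrial genes held 14.2% and 18.9% of them in the WT libraries against 52.3% and 39.2% in the S1KO libraries. Outside these genes and their nuclear copies 18055337 and 20540060 counts remained for WT, against 9319000 and 12891104 for S1KO. All 12 myeloid and microglial markers were present, so the defining RNAs of the labelled cell type were found in each library. These markers summed to less in S1KO, at 3994 and 4438 CPM for WT against 2917 and 2978 for S1KO. The fall was not shared by all 12. CSF1R, PTPRC, CX3CR1, P2RY12, TREM2, TYROBP and C1QA were lower in S1KO without overlap. For SPI1, ITGAM, GPR34, AIF1 and CD68 the groups overlapped. AIF1 had 307.1 and 247.4 CPM in WT against 317.3 and 291.4 in S1KO. CD68 had 201.5 and 131.7 CPM in WT against 227.8 and 167.1 in S1KO. The 10 mesenchymal markers summed to 3421 CPM in WT 1, led by COL1A1, and to 5.97, 11.2 and 23.2 CPM in WT 2, S1KO 1 and S1KO 2, so WT 1 stood apart. The 6 pluripotency genes summed to 6.36 and 7.85 CPM for WT against 16.78 and 16.83 for S1KO, without overlap. Their highest single value was 6.53 CPM, for DPPA4 in S1KO 2, and the groups overlapped for TDGF1. Of all genes tested, 26.0% had both S1KO libraries above both WT libraries. The 4 astrocyte markers summed to 16.0 to 36.6 CPM, mostly SLC1A3, with AQP4 at 0 in each library, and the 4 endothelial markers to 106.6 to 140.0, nearly all of it PECAM1. Neuron markers summed to 4.45 to 11.3 CPM, granulocyte markers to 1.97 to 3.26, with MPO, ELANE and PRTN3 at 0, and red cell markers to 0.13 to 0.29. The part of the mitochondrial share, of the lower myeloid and higher pluripotency marker sums in S1KO and of the mesenchymal RNA in WT 1 in the values below was not tested. In bulk RNA, fewer cells of a type and less RNA per cell cannot be told apart.

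The lysosomal genes were, as a group, slightly lower in S1KO, and no single member passed the test. The median log2 fold change over the 38 members was -0.23, against -0.02 over all genes tested. Of the members 29 lay below 0, where 51.3% of all genes did, and the count was 25 to 31 under the alternatives fitted to counts. The adjusted p stayed above 0.05 for each member (0 of 38, background 0.936%), and the smallest was 0.0614, for PPT1. At an unadjusted p under 0.05, 10 members were lower (background 9.22%) and 1 was higher (background 10.2%). In 18 members each S1KO library was lower than each WT library, which held for 25.8% of all genes, and in 4 members each was higher, which held for 26.0%. The differences were small: 37 of the 38 lay within 1 log2 unit, and the exception was IDS, at 1.85. With 2 libraries in each group an exact permutation test of a single value cannot go below p = 0.333, so single members were judged from the fit over all genes.

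The count of members past the threshold depended on the method. DESeq2 called 4 members lower (CD63, LAPTM5, NEU1 and PPT1, background 3.42%) and 1 higher (IDS, background 4.42%). With no filter on low counts edgeR called 3 (AGA and PPT1 lower and IDS higher, background 6.04%), and with a stricter filter it called PPT1 alone (background 1.79%). Without WT 1, the library with mesenchymal RNA, edgeR called 7 members: AGA, HEXA, IDUA, NEU1, PPT1 and SGSH lower and IDS higher, with a background of 12.5%. In that fit 30 members lay below 0 and their median was -0.28. Without WT 2 it called NEU1 and PPT1 lower and IDS higher (background 13.3%), and the members' median was -0.13. Without S1KO 1 or without S1KO 2 it called 0 genes of any kind, and the members' medians were -0.18 and -0.31. On deposited TPM, limma called 17 members lower (background 17.9%). That scale also put the median of all genes at -0.78, since TPM divides by a total in which mitochondrial genes weigh, and after the total was rescaled without them 0 members were called.

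**Figure D1:**
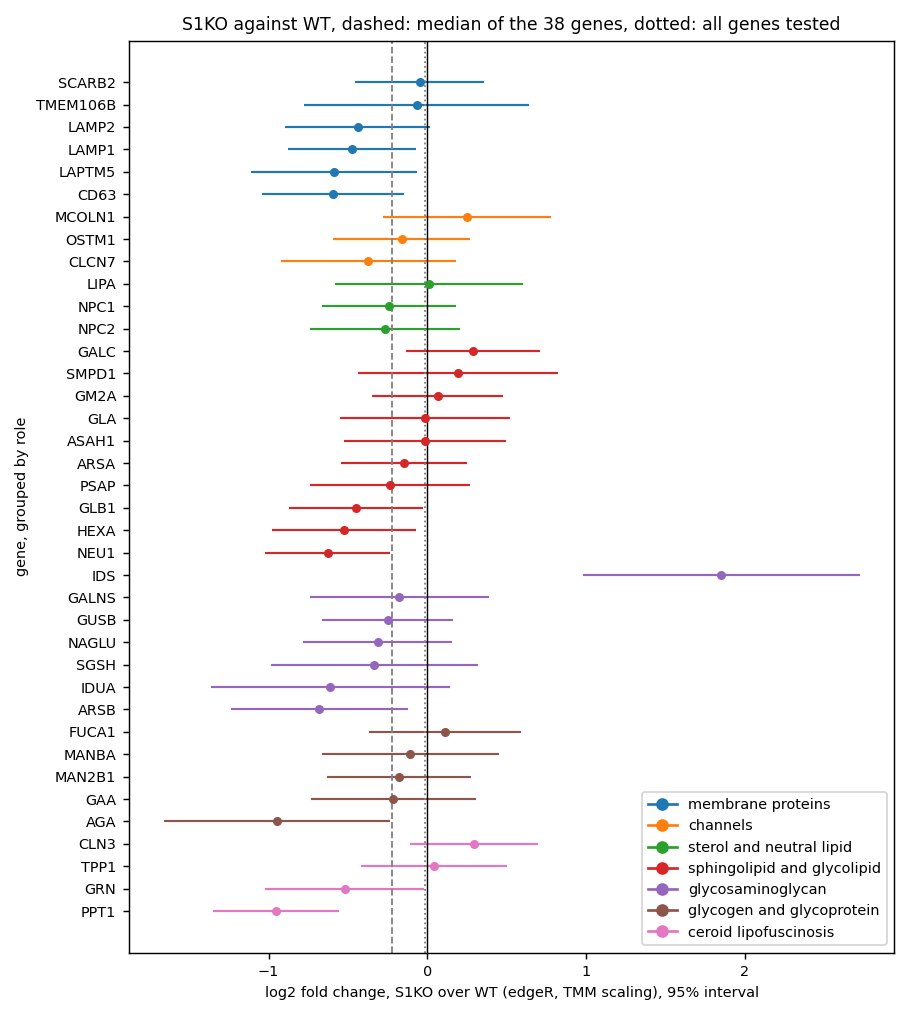
Log2 fold change of S1KO over WT for each of the 38 lysosomal genes, grouped and coloured by role (horizontal axis, log2 units), with the 95% interval implied by edgeR's test statistic as bars. The dashed line is the median of the 38 genes (-0.23) and the dotted line the median of all 15377 genes tested (-0.02). IDS (1.85) is the only gene beyond 1 in either direction in this fit.

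The 6 membrane proteins had the lowest median of the roles, -0.46, and each of the 6 was below 0, although SCARB2 turned to 0.07 with an offset for effective length and TMEM106B to 0.15 without WT 2. CD63, a tetraspanin of late endosomes and lysosomes, stood at 314.0 and 305.9 CPM in the WT libraries (1, then 2) against 182.7 and 227.5 in the S1KO libraries (log2 fold change -0.60 with an SE of 0.19, adjusted p = 0.170). LAPTM5, a transmembrane protein of lysosomes in blood-derived cells, stood at 1721 and 1669 CPM against 1142 and 1113 (log2 fold change -0.59 with an SE of 0.22, adjusted p = 0.215). In both genes the WT libraries lay close to each other and above both S1KO libraries. DESeq2 gave an adjusted p of 0.0356 for CD63 and 0.00497 for LAPTM5, and over all alternatives the adjusted p ran from 0.0316 to 0.703 and from 0.00497 to 0.690. LAMP1, the most used marker of the lysosomal membrane, stood at 82.9 and 72.1 CPM in WT against 53.2 and 58.3 in S1KO (log2 fold change -0.47, adjusted p = 0.203). Its relative LAMP2, which also serves in chaperone-mediated autophagy, stood at 58.3 and 48.1 CPM against 42.9 and 35.7 (log2 fold change -0.44, adjusted p = 0.274). The groups did not overlap in either gene. SCARB2, the receptor that carries glucocerebrosidase to the lysosome, had 42.1 and 49.1 CPM in WT against 44.7 and 43.4 in S1KO, and TMEM106B, a type II membrane protein that affects lysosome size and acidity, had 6.18 and 8.20 against 6.67 and 7.05. In these last 2 genes the S1KO libraries lay between the WT libraries.

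LAMP1 also had the most E-boxes in its promoter among the members matched. TFEB and its relatives, the MiT/TFE transcription factors, are known to bind E-boxes with the core CACGTG at lysosomal genes, and the palindrome TCACGTGA lies at the heart of their CLEAR element. RefSeq promoters (GRCh38.p14, 250 bases before to 50 after the start) were matched for 30 of the 38 members by symbol, and both strands were searched. CACGTG was found in 8 of these 30 (26.7%) and in 7.43% of all 27305 promoters of that length. TCACGTG, which contains it, was found in 7 (23.3%, against 3.82%), and the palindrome TCACGTGA, which contains both, in 5 (16.7%, against 1.04%): CLN3, GAA, GALNS, LAMP1 and MCOLN1. The LAMP1 window held 6 CACGTG cores, 5 of them wholly before the start. Below are the 250 bases before the start of LAMP1 (chr13:113296989-113297238, plus strand) and the last 100 before those of GAA (chr17:80101481-80101580, plus strand) and MCOLN1 (chr19:7522524-7522623, plus strand), shown because they hold the palindrome. Capitals mark each CACGTG with the flanking T or A that belongs to the longer motif.
LAMP1: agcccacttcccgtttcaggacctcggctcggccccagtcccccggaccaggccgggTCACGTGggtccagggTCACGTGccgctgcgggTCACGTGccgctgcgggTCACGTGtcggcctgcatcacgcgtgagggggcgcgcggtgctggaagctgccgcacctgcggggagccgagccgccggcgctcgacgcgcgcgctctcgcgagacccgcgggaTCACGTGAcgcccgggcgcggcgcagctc
GAA: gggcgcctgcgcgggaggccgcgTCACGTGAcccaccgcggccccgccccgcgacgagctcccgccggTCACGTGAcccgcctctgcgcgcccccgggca
MCOLN1: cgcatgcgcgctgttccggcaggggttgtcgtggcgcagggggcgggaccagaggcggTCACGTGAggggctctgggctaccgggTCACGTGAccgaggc
The 5 members with the palindrome had a median log2 fold change of -0.18, with values from -0.47 (LAMP1) to 0.29 (CLN3), and the 25 matched members without it had a median of -0.24. For the core CACGTG the order was the reverse, with a median of -0.29 for the 8 members with it and -0.17 for the 22 without. The 8 members with no matched promoter had a median of -0.27, and all 8 lay below 0. A match is a description of these letters and not of binding.

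Of the 3 channel genes 2 were below 0 and 1 was above, and none passed the test. CLCN7, the chloride and proton exchanger of lysosomes, had 224.4 and 305.0 CPM in WT against 177.3 and 231.8 in S1KO (log2 fold change -0.37, adjusted p = 0.425), and its groups overlapped. OSTM1, the beta subunit that CLCN7 needs, had 27.4 and 30.5 CPM against 24.7 and 27.0 (-0.16, adjusted p = 0.664), with the groups barely apart, and turned to 0.28 when only protein-coding transcripts were summed. MCOLN1, the calcium channel TRPML1, had 43.2 and 54.3 CPM in WT against 49.0 and 67.0 in S1KO (log2 fold change 0.25 with an SE of 0.22, adjusted p = 0.576). S1KO 1 lay between the WT libraries for MCOLN1, and the values ran from -0.36 to 0.64 over the alternatives.

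None of the 3 sterol and neutral lipid genes passed the test. NPC2, the soluble protein that binds cholesterol in the lumen, had 443.8 and 357.3 CPM in WT against 346.5 and 318.2 in S1KO (-0.27, adjusted p = 0.500). NPC1, the membrane protein to which NPC2 hands cholesterol, had 47.1 and 50.8 CPM against 37.7 and 45.0 (-0.24, adjusted p = 0.495), and 0.05 with an offset for effective length. For both NPC genes each S1KO library was below each WT library. LIPA, the acid lipase that frees cholesterol from its esters, had 83.9 and 119.6 CPM in WT against 119.3 and 85.4 in S1KO (0.01, adjusted p = 0.990), with a wide spread within each group.

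The 10 sphingolipid and glycolipid genes had a median of -0.08, and 7 were below 0, of which ASAH1 and GLA, at -0.02 each, turned sign under several settings. NEU1, the sialidase that trims sialic acid from glycoproteins and gangliosides, stood at 75.8 and 74.6 CPM in WT against 45.3 and 51.9 in S1KO, a log2 fold change of -0.63 (95% interval -1.02 to -0.24, adjusted p = 0.122). DESeq2 gave an adjusted p of 0.0263 for NEU1, and the alternatives ran from 0.0118 to 0.774. Of the 40 NEU1 transcripts in the files 36 are copies on alternate contigs, whose counts were added to those of the gene. HEXA, the alpha subunit of beta-hexosaminidase, had 169.1 and 212.7 CPM against 123.7 and 141.9 (-0.52, adjusted p = 0.209). GLB1, the beta-galactosidase, had 39.2 and 39.0 CPM against 30.9 and 26.4 (-0.45, adjusted p = 0.233). In NEU1, HEXA and GLB1 the groups did not overlap. PSAP, the precursor of the saposins that present sphingolipids to their enzymes, had 1292 and 1221 CPM in WT against 1037 and 1097 in S1KO (-0.24, adjusted p = 0.584). ARSA, which desulfates sulfatide, had a log2 fold change of -0.15, and the groups overlapped. ASAH1, the acid ceramidase, had 172.2 and 222.4 CPM in WT against 218.5 and 171.9 in S1KO, and GLA, the alpha-galactosidase, 33.2 and 48.8 against 39.8 and 41.4. GM2A, the activator that lifts ganglioside GM2 out of the membrane for HEXA, lay at 0.07. SMPD1, the acid sphingomyelinase, had 8.15 and 7.60 CPM in WT against 9.84 and 8.18 in S1KO (0.19, adjusted p = 0.727). GALC, the galactosylceramidase that degrades myelin lipids, had 22.7 and 24.7 CPM against 29.04 and 28.8 (log2 fold change 0.29 with an SE of 0.18, adjusted p = 0.419). GALC and SMPD1 had both S1KO libraries above both WT libraries, with small differences, and both lay below 0 on unscaled TPM.

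Of the 7 glycosaminoglycan enzymes 6 were below 0 and 1, IDS, was far above, although IDS turned to -0.16 on unscaled TPM and GUSB to 0.09 over protein-coding transcripts. ARSB, which removes sulfate from dermatan and chondroitin sulfate, stood at 13.4 and 14.8 CPM in WT against 9.43 and 8.13 in S1KO (log2 fold change -0.68 with an SE of 0.23, adjusted p = 0.195). IDUA, the iduronidase, had 46.9 and 77.8 CPM against 31.9 and 49.6 (-0.61, SE 0.31, adjusted p = 0.344), with S1KO 2 above WT 1. Over the alternatives the log2 fold change of IDUA ran from -1.48 to -0.19. Limma gave IDUA an adjusted p of 0.0258 on unscaled TPM and 0.480 on TPM rescaled without mitochondrial genes. SGSH and NAGLU, which act in turn on heparan sulfate, lay at -0.34 and -0.31, and GUSB, the glucuronidase, at -0.25. SGSH had 50.6 CPM in WT 1 and 85.3 in WT 2, so that its value was 0.09 without WT 2 and -0.66 without WT 1. GALNS, which desulfates keratan sulfate, had 16.6 and 16.2 CPM in WT against 12.3 and 16.7 in S1KO (-0.18).

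**Figure D2:**
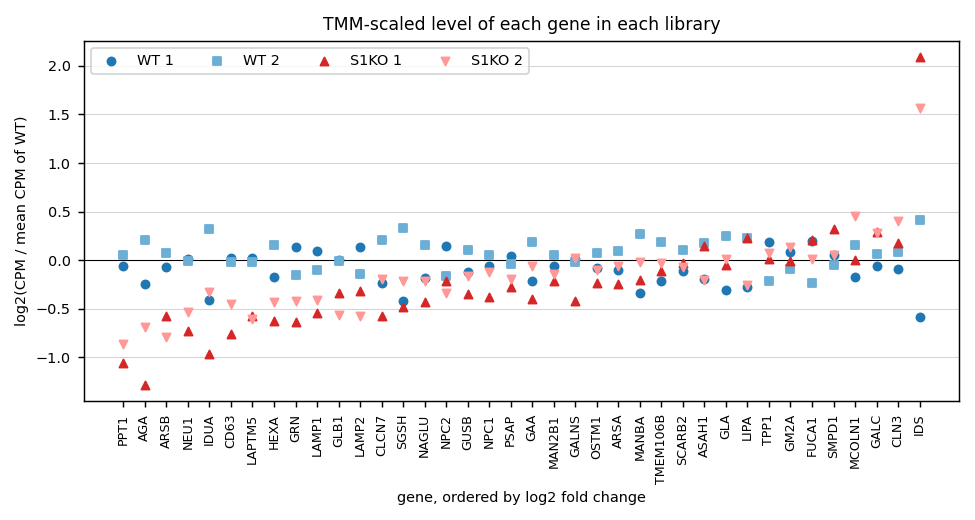
Level of each lysosomal gene in each library as log2 of its TMM-scaled CPM over the mean CPM of the 2 WT libraries (vertical axis), with genes ordered by log2 fold change. Circles and squares are WT 1 and WT 2 and triangles are S1KO 1 and S1KO 2; IDS lies above 1.5 in both S1KO libraries, and PPT1 lies below -0.8 in both.

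IDS, the iduronate sulfatase that starts the breakdown of heparan and dermatan sulfate, had the largest difference of the list. It stood at 10.2 and 20.3 CPM in the WT libraries (1, then 2) against 64.8 and 45.2 in the S1KO libraries. Both S1KO libraries were above both WT libraries, and WT 2 had double the level of WT 1. The log2 fold change was 1.85 (SE 0.36; 95% interval 0.98 to 2.72, adjusted p = 0.0824), and DESeq2 gave an adjusted p of 4.06e-05. Without WT 1 the log2 fold change was 1.44 and without WT 2 it was 2.44. The difference lay mostly in 1 of its 8 transcripts. IDS-201, of 7580 bases (chrX:149476990-149505347, minus strand, GENCODE 29 on GRCh38), had 3.68 and 8.36 CPM in WT against 53.7 and 34.3 in S1KO, a ratio of group means of 7.30. The other 7 transcripts together had 6.46 and 11.96 CPM against 11.2 and 10.9, a ratio of 1.2. IDS-201 thus held 36.3% and 41.2% of the IDS counts in WT and 82.7% and 75.8% in S1KO. The gene's difference was smaller per length: with an offset for effective length it was 0.77 (adjusted p = 0.206), on TPM rescaled without mitochondrial genes 0.71, and on unscaled TPM -0.16. The rescaled TPM of IDS was 17.1 and 28.8 for WT against 34.5 and 39.3 for S1KO, still without overlap. IDS-201 shares 1438 exonic bases with AC244197.3 on the same strand, a gene that had 7.47 and 14.7 CPM in WT against 8.69 and 12.8 in S1KO.

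**Figure D3:**
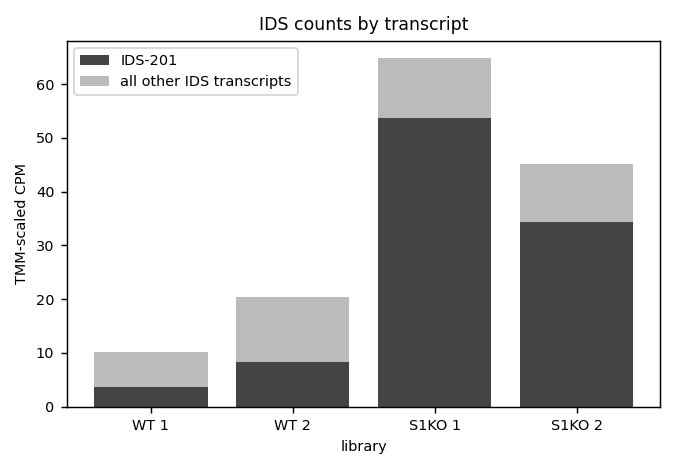
TMM-scaled CPM of IDS in each library (vertical axis), divided into the transcript IDS-201 (dark) and the other 7 transcripts together (light). The light part is 6.46 to 11.96 CPM in the 4 libraries, and the dark part is 3.68 and 8.36 in WT 1 and WT 2 against 53.7 and 34.3 in S1KO 1 and S1KO 2.

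The 5 enzymes of glycogen and glycoprotein breakdown had a median of -0.18. AGA, the aspartylglucosaminidase that cuts the bond between asparagine and its glycan, stood at 15.0 and 20.7 CPM in WT against 7.34 and 11.1 in S1KO (log2 fold change -0.95 with an SE of 0.30, 95% interval -1.66 to -0.24, adjusted p = 0.168). Its groups did not overlap, and S1KO 1 was the lowest. Over the alternatives AGA ran from -2.39 to -0.64, with adjusted p from 0.00119 to 0.691. GAA, the acid glucosidase of glycogen, had 187.0 and 247.8 CPM against 165.2 and 209.3 (-0.21, adjusted p = 0.629), with overlap. MAN2B1, the alpha-mannosidase, had 568.2 and 614.9 CPM in WT against 508.7 and 537.3 in S1KO (-0.18, adjusted p = 0.647). MANBA, the beta-mannosidase, and FUCA1, the fucosidase, lay at -0.11 and 0.11, with overlap between the groups in both.

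The 4 genes linked to ceroid lipofuscinosis, a storage disease of neurons, ran in both directions. PPT1, the thioesterase that takes palmitate off proteins, had the lowest log2 fold change of the 38. It stood at 155.6 and 168.8 CPM in the WT libraries (1, then 2) against 77.9 and 89.4 in the S1KO libraries. The S1KO levels were about 0.52 times those of WT, and the gap was several times the spread within either group: log2 fold change -0.96 (SE 0.16, 95% interval -1.35 to -0.56, adjusted p = 0.0614). DESeq2 called PPT1 at an adjusted p of 3.74e-05, edgeR with the stricter filter at 0.0490 and limma on unscaled TPM at 0.00306. PPT1 did not pass with edgeR's offset for effective length (0.0584), with limma on rescaled TPM (0.0827) or with edgeR over protein-coding transcripts (0.128). An exon of PPT1 overlaps one of CAP1, on the opposite strand, by 1189 bases, and the sources used here do not say whether the libraries keep strand. CAP1 had 330.1 and 251.3 CPM in WT against 420.5 and 349.2 in S1KO. The part of this overlap in the PPT1 values was not tested. Most of the PPT1 difference lay in PPT1-209 (chr1:40072712-40082321, minus strand), a transcript that shares 0 exonic bases with CAP1. It had 98.7 and 96.2 CPM in WT against 21.2 and 37.4 in S1KO, or 63.4% and 57.0% of the PPT1 counts against 27.2% and 41.8%. GRN, the precursor of granulins, had 672.2 and 553.8 CPM in WT against 393.9 and 459.9 in S1KO (-0.52, SE 0.21, adjusted p = 0.241), without overlap. TPP1, the tripeptidyl peptidase, had 176.1 and 133.0 CPM against 155.5 and 162.7 (0.04), with both S1KO libraries inside the WT range. CLN3, a membrane protein of lysosomes, had 84.2 and 94.6 CPM in WT against 100.9 and 117.9 in S1KO (log2 fold change 0.29 with an SE of 0.17, 95% interval -0.11 to 0.69, adjusted p = 0.392). CLN3 lay higher in both S1KO libraries on the count scale, and at -0.55 on unscaled TPM. The longest overlap of a CLN3 exon with an APOBR exon, on the opposite strand, is 452 bases. With an exon of AC138894.1, on the same strand, it is 624. APOBR had 357.5 and 381.9 CPM in WT against 313.5 and 359.1 in S1KO, and AC138894.1 0.54 and 0.99 against 0 and 0.89. The part of these overlaps in the CLN3 values was not tested.

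Levels were compared between genes per length, as TPM rescaled to a total without mitochondrially encoded genes. The nuclear copies of those genes stayed in that total, and their part in the rescaled values was not tested. The 38 genes together made up 0.919% and 0.935% of that total in the WT libraries against 0.600% and 0.792% in the S1KO libraries. LAPTM5, PSAP, NPC2 and CD63 had the highest means in both genotypes, in that order. LAPTM5 had 1744 and 1659 rescaled TPM in WT and 998.0 and 1161 in S1KO, and PSAP had 1419 and 1421 against 829.3 and 1206, so the first and second places do not differ beyond their spread in S1KO. At the other end, ARSB had 7.4 and 9.7 rescaled TPM in WT and 4.4 and 4.5 in S1KO, and TMEM106B 3.1 and 4.6 against 1.7 and 1.5. The order in between moved most for PPT1, 11th in WT and 21st in S1KO, and for MCOLN1, 24th and 14th. MCOLN1 had 68.5 and 84.7 rescaled TPM in WT and 85.3 and 143.7 in S1KO. Retained-intron transcripts held 74.6% and 75.5% of its TPM in WT and 70.6% and 84.2% in S1KO. S1KO 1 held the lowest rescaled TPM of the summed list, and on the CPM scale it was the lowest of the 4 libraries in 19 of the 38 genes, while WT 2 was the highest in 20. Replicates of 1 genotype differed by a median of 0.25 log2 units over the members in WT and 0.21 in S1KO, against 0.31 and 0.26 over all genes. The fewest counts behind a member were 99, for TMEM106B in S1KO 1.

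**Figure D4:**
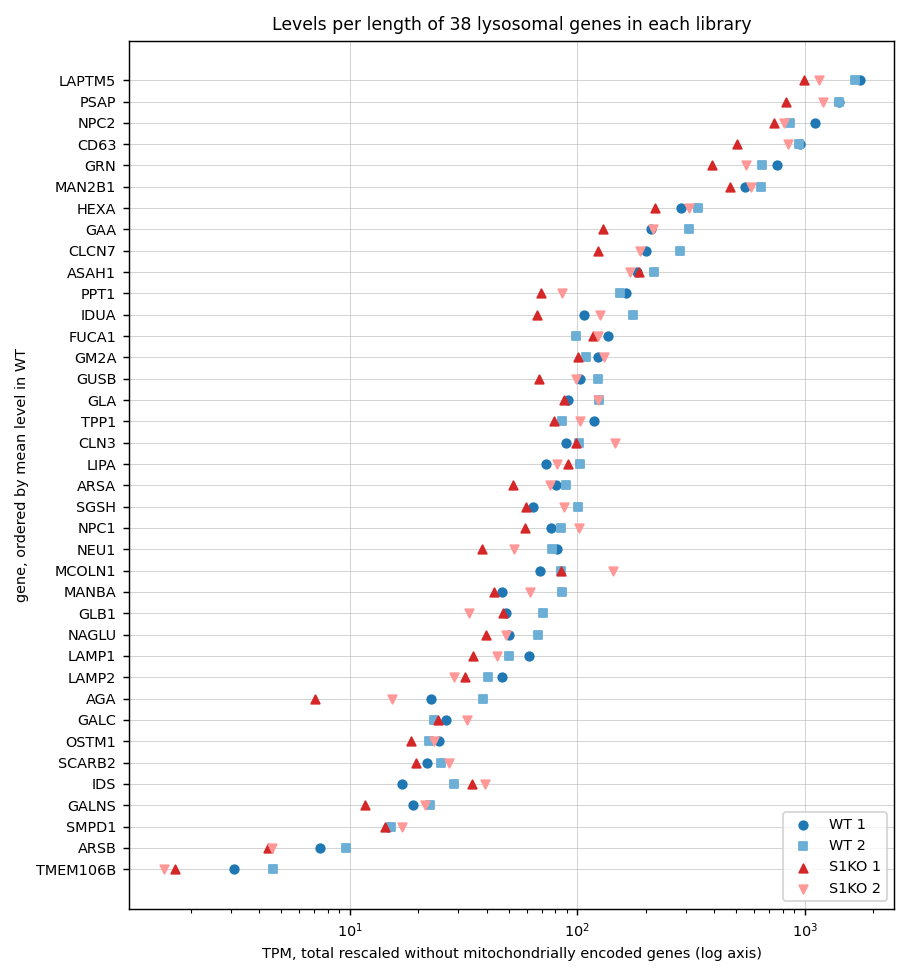
Rescaled TPM of the 38 lysosomal genes in each library (horizontal log axis), ordered by the mean of WT 1 and WT 2. Levels span from TMEM106B at 1.5 to 4.6 to LAPTM5 at 998.0 to 1744, and the S1KO triangles of PPT1, NEU1 and AGA lie left of both WT symbols.

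The transcript make-up of the members was described as well, without a test. The share of counts in protein-coding transcripts moved by over 10 percentage points in 5 members (13.2%), a smaller part than the 19.98% of 13999 protein-coding genes that moved that far. OSTM1 had 63.8% and 67.5% of its counts in protein-coding transcripts in WT and 93.4% and 86.1% in S1KO, and in WT the remainder was mostly the processed transcript OSTM1-207. AGA had 84.1% and 73.3% in WT and 100% and 94.5% in S1KO. Its processed transcript AGA-203 held 65 and 170 WT counts against 0 and 8 S1KO counts. IDS had 78.9% and 72.3% of its counts in protein-coding transcripts in WT and 96.3% and 88.0% in S1KO. TPP1 had 52.5% and 52.6% in WT and 67.7% and 59.7% in S1KO, and ASAH1 44.4% and 44.7% against 53.5% and 55.7%. Retained-intron transcripts took 40.1% and 42.9% of the SGSH counts in WT and 25.8% and 21.0% in S1KO, and for HEXA 14.5% and 14.9% against 25.3% and 28.7%. For TPP1 they took 47.4% and 46.4% in WT and 31.8% and 39.1% in S1KO. This share was thus lower in S1KO for SGSH and TPP1 and higher for HEXA, each without overlap between the groups. SGSH, TPP1 and HEXA were the members in which it moved by over 10 percentage points. How many of all genes moved that far, or had no overlap in this share, was not computed. Whether these members stand apart from other genes is therefore not known. Wilson intervals (95%) were taken of these shares, without the TPP1 retained introns, and of those of IDS-201 and PPT1-209. They were at most 5.56 percentage points wide to either side. They cover the error of counting and not the error of dividing reads among transcripts. Of the 38 members 16 overlap a gene on the opposite strand and 10 one on the same strand, and 18 overlap none.

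A second list, of 31 other lysosomal genes, was read from the same fit. Of these 31, 21 were below 0, with a median of -0.33, 0 passed the adjusted threshold, and 8 were lower and 0 higher at an unadjusted p under 0.05 (9.22% and 10.2% of all genes). The S1KO pair was lower than the WT pair without overlap in 16 of the 31 and higher in 2 (25.8% and 26.0% of all genes), and DESeq2 called 4 lower and 0 higher (3.42% and 4.42%). The smallest p-values belonged to LAPTM4A, a relative of LAPTM5 (60.4 and 49.9 CPM in WT, 25.5 and 32.0 in S1KO, log2 fold change -0.94, adjusted p = 0.0930), DNASE2, the acid DNase (-0.87, adjusted p = 0.107), and HYAL2, a hyaluronidase (-0.96, adjusted p = 0.109). Of 10 genes for the delivery of hydrolases 6 were below 0, with a median of -0.32, and 0 passed. Their smallest p-values belonged to SUMF1, which activates sulfatases such as IDS, ARSA, ARSB, GALNS and SGSH (-0.65, adjusted p = 0.161), GNPTG, a subunit of the enzyme that adds the mannose 6-phosphate tag (-0.53, adjusted p = 0.173), and SORT1, a sorting receptor that also binds progranulin (-0.54, adjusted p = 0.203). The transcription factors of the CLEAR element did not pass either. TFEB had 61.8 and 64.3 CPM in WT against 65.0 and 79.7 in S1KO (0.20, adjusted p = 0.575), and TFE3 and TFEC lay at -0.04 and -0.02. MITF had 5.004 and 18.0 CPM in WT against 25.1 and 21.5 in S1KO (1.02, adjusted p = 0.360), with WT 1 far below the other 3 libraries.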

How the data were processed

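The members and the gene lists were chosen with earlier results of these data known. Poly-A RNA was sequenced as paired reads of 150 bp, per the labels' protocols. The submitters' processing notes name kallisto and hg38 (version, transcript set and strand setting not given in the sources used here). Per the file headers, the authors deposited for each transcript an estimated count and its TPM, with length and effective length, in 1 file per library.

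Transcripts were summed to genes with GENCODE 29 (GRCh38): of 188753, 169797 matched by identifier and 15521 by symbol, and 3435 without a gene name (0.323% to 0.643% of counts) were left out. Sums were rounded to whole numbers, filtered with filterByExpr (15377 of 35584 genes kept), given TMM factors (WT 1.313 and 1.217, S1KO 0.654 and 0.957) and tested with edgeR 4.0.16 (R 4.3.3; glmQLFit and glmQLFTest, two-sided, genotype as the only term). P-values were adjusted by Benjamini-Hochberg over all genes tested, with 0.05 as the threshold; the fit was checked on simulated counts. The common biological coefficient of variation was 0.293. Differences are on the log2 scale with a prior count of 0.125, and CPM is without one.

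The alternatives were DESeq2 1.42.0, its size factors in edgeR, fits without a filter or with a stricter one (mean TPM of 1 or more, and CPM of 1 or more in 2 libraries), a block for the replicate number, leaving out 1 library at a time, effective length as an offset, mitochondrial genes left out, protein-coding transcripts only, and limma 3.58.1 on log2(TPM + 1), log2(TPM + 0.1) and rescaled TPM. Numbered libraries were not taken as pairs, since nothing in the labels pairs them and the deviations of WT 1 and S1KO 1 from their group means correlated at 0.02 over genes. The text names INPP5D, all 38 members (the 4 of largest size in each direction with full statistics), up to 3 of smallest p of 2 further lists and 4 transcription factors; other genes are cell type markers, or genes that overlap a member and were named after their values were seen.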

Additional observations from a re-analysis of the deposited data

How the results depend on the processing

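Against 144 genes called, DESeq2 called 1158, no filter 1361, the stricter filter 223, protein-coding transcripts only 22, limma on log2(TPM + 1) 2892 and on log2(TPM + 0.1) 2637, and leaving out 1 library gave 0 to 2151. Against 0 members called, these gave 5 (DESeq2), 3 (no filter), 1 (stricter filter), 17 and 17 (limma, both pseudocounts) and 0 to 7 (1 library left out). With the replicate number as a block 0 genes and 0 members were called; nothing shows that the numbers pair the libraries. The members' median of -0.23 was -1.18 and -1.26 with limma on log2(TPM + 1) and log2(TPM + 0.1), and -0.31 to -0.13 with 1 library left out. The log2 ratio of the members' summed TPM was -1.27, and -0.41 after rescaling without mitochondrial genes but with their nuclear copies. CACGTG was in 8 member promoters and TCACGTGA in 5.

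Of 570 member values under alternatives, 465 kept sign and side of the threshold, 53 passed it and 52 turned sign; the cause was not tested. With limma on log2(TPM + 1) and log2(TPM + 0.1), the values that turned were GALC -0.67 and -0.72, IDS -0.16 and -0.17, SMPD1 -0.75 and -0.83, GM2A -0.91 and -0.92, LIPA -0.89 and -0.91, TPP1 -1.04 and -1.06, CLN3 -0.55 and -0.57, MCOLN1 -0.35 and -0.36, and FUCA1 -0.83 and -0.84; on rescaled TPM, GM2A -0.019, LIPA -0.0085 and TPP1 -0.16. With the length offset these were GLA 0.040, NPC1 0.049, TPP1 -0.086 and SCARB2 0.071. With protein-coding transcripts only they were GUSB 0.091, MANBA 0.095, ASAH1 0.26, LIPA -0.016 and OSTM1 0.28. The stricter filter gave GLA 0.010 and ASAH1 0.0081, the replicate block GLA 0.0099 and no filter LIPA -0.011. With 1 library left out, the lowest and highest values were -0.27 and 0.29 for GLA, -0.41 and 0.0062 for GAA, -0.38 and 0.23 for MANBA, -0.66 and 0.093 for SGSH, -0.21 and 0.18 for ASAH1, -0.027 and 0.16 for GM2A, -0.26 and 0.29 for LIPA, -0.14 and 0.26 for TPP1, -0.26 and 0.15 for TMEM106B, -0.15 and 0.069 for SCARB2, -0.0071 and 0.45 for MCOLN1, -0.44 and 0.019 for GALNS, and -0.084 and 0.34 for FUCA1. A lone library was taken to vary as the other group does.

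The limits are 2 libraries per genotype, a mitochondrial share that differs between the genotypes and leaves fewer nuclear counts in S1KO, and mesenchymal RNA in WT 1. Transcript shares rest on kallisto's division of reads.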
